A study of Mus musculus with 24 samples.

Results

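The voltage-gated sodium and calcium channel genes were followed across 4 brain cell populations and an embryonic cortex. Members were the genes whose symbol is Scn, a number and a or b, or begins with Cacna, Cacnb or Cacng. This pattern matched 39 of the 23871 genes in the PAPERCLIP tables. Scn2a1, an older symbol of Scn2a, ends in a digit and falls outside the pattern, and it was added as a named marker of the family, giving 40 genes. All 40 were also found by Ensembl identifier among the 47069 identifiers of the RNA-seq tables.

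In cTag-PAPERCLIP, a poly(A)-binding protein fused to GFP is made once Cre has acted, and anti-GFP antibodies then recover the 3′ ends of bound mRNA from whole tissue, so that a library reports mostly the cells in which the Cre driver was active. All tagged mice carried the Ctag-PABP allele together with a Cre driver. The Cx3cr1-Cre line, whose driver is a microglial and macrophage gene, gave 2 untreated libraries from whole brain, 3 after lipopolysaccharide (LPS) and 3 after phosphate-buffered saline (PBS). The Gfap-Cre line (an astrocyte driver), the Camk2a-Cre line (an excitatory neuron driver) and the Gad2-Cre line (an inhibitory neuron driver) gave 2 untreated libraries each from cortex. Age, strain background and animals per library were not given in the labels for these PAPERCLIP libraries, nor was the LPS dose for the 6 treated ones. A further PAPERCLIP library came from liver, with no Cre line or tag named, and it enters only the counts over all 15 PAPERCLIP libraries. RNA-seq came from wild-type C57BL/6 microglia purified on CD11b beads, 3 libraries after LPS and 3 after PBS, and from Ptbp2-KO cortex at E18.5, 3 libraries that the labels call biological replicates and for which no control cortex was analysed here. Per the labels' protocols, the adult wild-type mice of the bead isolation had received 1 mg/kg LPS, or PBS, on each of 4 days, and 2 brains were pooled per tube.

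Voltage-gated sodium channels open when the membrane depolarises and carry the upstroke of the action potential. Each has a pore-forming α subunit and smaller β subunits that set its gating and place it in the membrane. Voltage-gated calcium channels turn depolarisation into calcium entry, which releases transmitter at nerve terminals and signals to the nucleus from dendrites and cell bodies. Their pore subunit is joined by an extracellular α2δ subunit that helps it reach the surface and by a cytoplasmic β subunit. Several genes of the γ family encode partners of AMPA-type glutamate receptors as well as, or in place of, calcium channel subunits.

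Promoter windows in RefSeq's table (build GRCm38.p6, 250 bases before to 50 after each annotated start) were found for 30 of the 40 genes, 41 windows in all. Shown here are those of the α2δ pair that differed in opposite directions between the neuron classes, and those of the sodium α markers Scn1a and Scn2a1. Letters run 5′ to 3′ along the gene, and capitals mark a GC box (GGGCGG) or a TATA box (TATAAA) on either strand.
Cacna2d1, chr5:15934441-15934740, plus strand: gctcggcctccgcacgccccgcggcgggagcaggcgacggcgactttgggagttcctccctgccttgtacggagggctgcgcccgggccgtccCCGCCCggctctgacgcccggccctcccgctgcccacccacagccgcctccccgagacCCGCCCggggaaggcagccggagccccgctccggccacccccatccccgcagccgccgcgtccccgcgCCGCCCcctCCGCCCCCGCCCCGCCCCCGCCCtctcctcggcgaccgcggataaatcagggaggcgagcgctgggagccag
Cacna2d2, chr9:107399630-107399929, plus strand: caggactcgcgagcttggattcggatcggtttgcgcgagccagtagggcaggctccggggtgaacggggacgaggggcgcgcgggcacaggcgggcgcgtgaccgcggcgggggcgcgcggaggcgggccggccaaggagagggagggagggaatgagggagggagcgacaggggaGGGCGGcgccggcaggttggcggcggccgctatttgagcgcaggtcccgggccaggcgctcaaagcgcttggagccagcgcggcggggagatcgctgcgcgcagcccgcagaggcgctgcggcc
Scn1a, chr2:66440788-66441087, minus strand: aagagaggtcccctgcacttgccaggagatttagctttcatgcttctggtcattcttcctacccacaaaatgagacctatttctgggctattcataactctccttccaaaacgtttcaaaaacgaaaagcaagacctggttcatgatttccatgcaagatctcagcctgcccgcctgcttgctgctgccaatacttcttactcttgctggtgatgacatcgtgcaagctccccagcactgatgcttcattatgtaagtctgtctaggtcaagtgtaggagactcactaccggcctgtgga
Scn2a1, first start, chr2:65620519-65620818, plus strand: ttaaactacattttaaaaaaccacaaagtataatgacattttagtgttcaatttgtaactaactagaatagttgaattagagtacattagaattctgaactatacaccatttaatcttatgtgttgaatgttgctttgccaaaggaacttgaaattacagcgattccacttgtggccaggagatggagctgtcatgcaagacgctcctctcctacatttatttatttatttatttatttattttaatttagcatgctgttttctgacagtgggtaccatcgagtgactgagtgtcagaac
Scn2a1, second start, chr2:65668436-65668735, plus strand: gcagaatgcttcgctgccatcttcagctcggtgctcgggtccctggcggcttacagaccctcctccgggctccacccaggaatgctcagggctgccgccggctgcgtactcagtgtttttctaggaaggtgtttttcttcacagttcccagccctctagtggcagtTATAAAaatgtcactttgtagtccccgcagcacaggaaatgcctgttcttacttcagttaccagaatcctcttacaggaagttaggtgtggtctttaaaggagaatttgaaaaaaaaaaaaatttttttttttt
The Cacna2d1 window held 7 GC boxes (overlapping matches counted) and 42 CpG, and the Cacna2d2 window held 1 GC box and 43 CpG. No GC box lay in the Scn1a window, which had 5 CpG, or in either Scn2a1 window, and the second Scn2a1 window held 1 TATA box. Over the family, 16 of 41 windows (39.0%) held a GC box, against 35.7% of all 32851 windows. A TATA box was present in 2 of 41 windows, against 13.6% of all windows.

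PAPERCLIP depth was 133456 and 154959 counts in the untreated Cx3cr1 libraries and 630475 to 2005627 counts in the 6 cortical libraries. Markers of the cell type named for each line were highest in that line's own libraries. Microglial markers took 2.77% and 3.08% of counts in untreated Cx3cr1 libraries and at most 0.0105% in cortical libraries. Astrocyte markers took 2.40% to 2.82% in Gfap libraries and at most 0.0640% in the 4 neuronal libraries. Excitatory markers took 0.294% and 0.271% in Camk2a libraries, against 0.00777% and 0.00694% in Gad2 libraries, and inhibitory markers took 0.00324% and 0.00387% in Camk2a libraries, against 0.468% and 0.415% in Gad2 libraries. Gfap replicate 2 also held oligodendrocyte markers at 0.819% of counts, against 0.112% in Gfap replicate 1. Excitatory markers took 0.0235% and 0.0110% in Gfap libraries, above the Gad2 libraries. Oligodendrocyte precursor markers took 0.0127% and 0.0446% in Gfap libraries, and at most 0.000546% in the 4 neuronal libraries. Endothelial and mural markers took 0.0137% and 0.0202% in Gfap libraries, and at most 0.000436% in neuronal libraries.

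The 40 channel genes together took 0.0245% and 0.0232% of counts in untreated Cx3cr1 libraries, 0.0541% and 0.0426% in Gfap libraries, 0.580% and 0.580% in Camk2a libraries, and 0.546% and 0.525% in Gad2 libraries. Both neuron classes stood about an order of magnitude above the Gfap libraries, without overlap. Pan-neuronal markers, of which all 6 had counts in every cortical library, took 0.0452% and 0.0450% in untreated Cx3cr1 libraries, 0.125% and 0.0668% in Gfap libraries, 1.05% and 1.01% in Camk2a libraries, and 1.21% and 1.22% in Gad2 libraries, and their part in the channel values of the glial libraries was not tested. In such tissue libraries, fewer cells of a type and less RNA per cell cannot be told apart.

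Of the 40 genes, 23 had enough counts for the tests (22 without Scn2a1), among 9421 genes tested. The other 17 stayed at or below 10.1 normalised CPM (counts scaled by TMM-adjusted library size) in each of the 8 untreated libraries. Of these, 7 were listed at 0 in every PAPERCLIP library: Scn4a, Scn10a, Scn11a, Scn4b, Cacng6, Cacng7 and Cacng8.

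**Figure D1:**
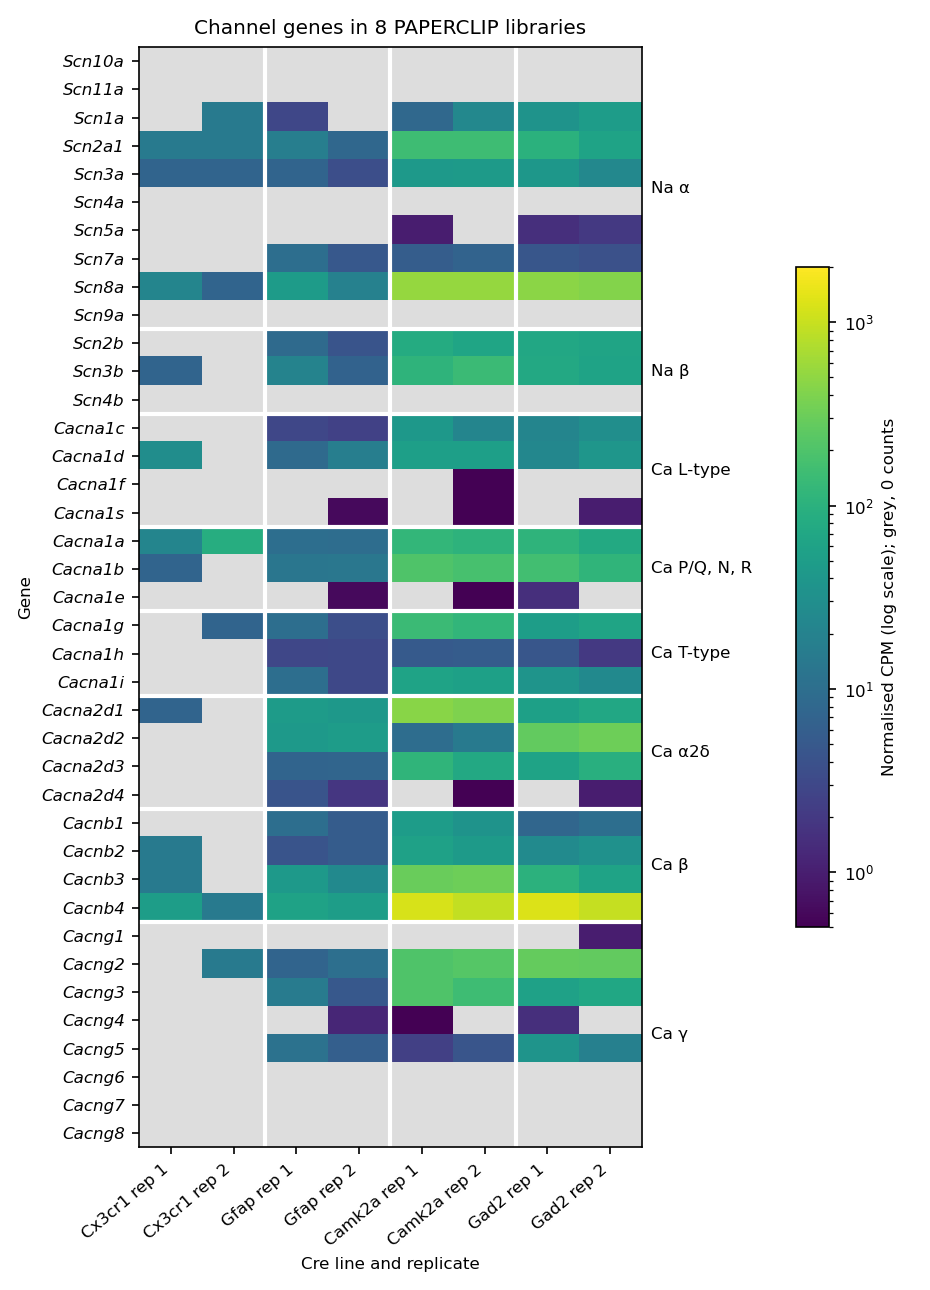
Normalised CPM (colour, log scale; grey is a count of 0) of 39 channel genes in rows, grouped by subunit class, in the 2 libraries of each Cre line in columns. Columns of the neuronal lines are brightest, and Cacnb4 reaches 1307. Rows of Scn4a, Scn9a, Scn10a, Scn11a, Scn4b, Cacng6, Cacng7 and Cacng8 are grey throughout.

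Between the neuron classes, the question was which subunits differ between excitatory and inhibitory cortical neurons. Camk2a libraries were higher than Gad2 libraries in 7 of the 23 tested genes (6 without Scn2a1) and lower in 3, at an adjusted p under 0.05. Among all genes tested, 11.6% were higher and 9.6% lower. The median log2 difference was 0.49 over the 23 genes and 0.03 over all genes. Differences fell on the auxiliary subunits as well as the pores: of 13 tested auxiliary genes 5 were higher and 2 lower, and of 10 tested pore genes 2 were higher and 1 lower.

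Cacna2d1 and Cacna2d2 encode alternative α2δ subunits, both of which bind gabapentin. Cacna2d1 (chr5:15934264-16374511) had 455.9 and 401.5 normalised CPM in Camk2a libraries, against 55.4 and 72.0 in Gad2 libraries. The log2 difference was 2.73 (SE 0.26, adjusted p = 2.35e-07). Cacna2d2 (chr9:107399733-107529346), whose loss causes the ataxic ducky mouse, had 9.66 and 15.0 normalised CPM in Camk2a libraries, against 275.2 and 322.4 in Gad2 libraries. It was the most different member by p, with a log2 difference of -4.59 (SE 0.28, adjusted p = 2.31e-09). Within single libraries, the log2 ratio of Cacna2d1 to Cacna2d2 was 5.56 and 4.74 in Camk2a libraries, against -2.31 and -2.16 in Gad2 libraries. Cacna2d3 did not pass, with 113.5 and 75.6 normalised CPM in Camk2a libraries, against 61.5 and 93.7 in Gad2 libraries (log2 difference 0.26, SE 0.27, adjusted p = 0.559), and those groups overlapped.

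Of the 4 genes for cytoplasmic calcium channel β subunits, 2 were higher. Cacnb3 had 299.4 and 324.9 normalised CPM in Camk2a libraries, against 104.6 and 62.1 in Gad2 libraries (log2 difference 1.94, SE 0.29, adjusted p = 5.22e-05). Cacnb1, best known from skeletal muscle, had 48.8 and 35.5 normalised CPM in Camk2a libraries, against 7.69 and 9.86 in Gad2 libraries (log2 difference 2.22, SE 0.41, adjusted p = 0.000557). The Cacnb1 span overlaps that of the ribosomal gene Rpl19, and whether strand was used in counting is not given, so its reads may include those of its neighbour. Cacnb4, the gene disrupted in the lethargic mouse, had 1207 and 939.6 normalised CPM in Camk2a libraries, against 1307 and 950.3 in Gad2 libraries. Its groups overlapped and its log2 difference was -0.07 (SE 0.28, adjusted p = 0.907). Cacnb2 stood at a log2 difference of 0.78 (SE 0.31, adjusted p = 0.0878).

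In the γ family, Cacng3, an AMPA receptor partner, had 200.9 and 153.2 normalised CPM in Camk2a libraries, against 58.4 and 69.0 in Gad2 libraries (log2 difference 1.46, SE 0.28, adjusted p = 0.000863). Cacng5, a more distant member of the same receptor-partner family, ran the other way, with 2.41 and 4.51 normalised CPM in Camk2a libraries, against 36.9 and 18.7 in Gad2 libraries (log2 difference -2.91, SE 0.53, adjusted p = 0.000535). Cacng2, which encodes stargazin, had a log2 difference of -0.39 (SE 0.23, adjusted p = 0.266).

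Among the sodium channel pores, Scn1a, the gene mutated in Dravet syndrome and needed for fast firing of interneurons, had 8.21 and 24.0 normalised CPM in Camk2a libraries, against 35.4 and 49.3 in Gad2 libraries. Groups did not overlap, and the log2 difference was -1.42 (SE 0.45, adjusted p = 0.0308). Scn2a1, the sodium channel best known from axons of excitatory neurons, had 151.7 and 154.7 normalised CPM in Camk2a libraries, against 101.5 and 61.1 in Gad2 libraries (log2 difference 0.95, SE 0.26, adjusted p = 0.0134). Scn8a, which sits at axon initial segments and nodes of Ranvier, had 532.7 and 545.6 normalised CPM in Camk2a libraries, against 479.7 and 431.8 in Gad2 libraries (log2 difference 0.24, SE 0.28, adjusted p = 0.596). Among the 3 tested β subunits only Scn3b passed, at a log2 difference of 0.89 (SE 0.28, adjusted p = 0.0308).

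Among calcium channel pores, Cacna1g, a T-type channel that opens near rest, had 143.0 and 118.6 normalised CPM in Camk2a libraries, against 50.7 and 63.1 in Gad2 libraries (log2 difference 1.18, SE 0.27, adjusted p = 0.00291). A second T-type gene, Cacna1i, lay just outside the threshold (log2 difference 0.93, SE 0.33, adjusted p = 0.05004). Cacna1a, the P/Q-type pore that drives transmitter release, had 122.2 and 106.1 normalised CPM in Camk2a libraries, against 110.7 and 76.9 in Gad2 libraries. These groups overlapped (log2 difference 0.31, SE 0.27, adjusted p = 0.469). The N-type gene Cacna1b and the L-type genes Cacna1c and Cacna1d had log2 differences of 0.49, 0.24 and 0.76 and did not pass.

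Calls for Cacna2d1, Cacna2d2, Cacnb1, Cacnb3 and Cacng5 held under every alternative that could test them, and those of the other 5 genes did not. With DESeq2 the adjusted p was 0.204 for Scn1a, 0.132 for Scn2a1 and 0.223 for Scn3b. With a filter at 5 CPM in 2 libraries it was 0.106 for Scn1a and 0.0798 for Scn3b. Scn1a did not pass without either Gad2 replicate or without Camk2a replicate 1, where its log2 difference was -0.83, and without Camk2a replicate 2 it was -2.37. Scn2a1 did not pass without Gad2 replicate 2, where its log2 difference was 0.61, or without either Camk2a replicate, Scn3b without any of the 4 libraries, and Cacna1g without replicate 1 of either group. With all libraries thinned to 133456 counts, 14 members could be tested, of which 2 were higher and 1 lower. Cacna1g, Scn2a1, Scn3b and Cacng3 did not pass there, Cacng3 at a log2 difference of 0.56 (adjusted p = 0.554). Cacnb1, Cacng5 and Scn1a could not be tested there. Without Camk2a replicate 1 alone, 4 genes were higher and 2 lower.

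**Figure D2:**
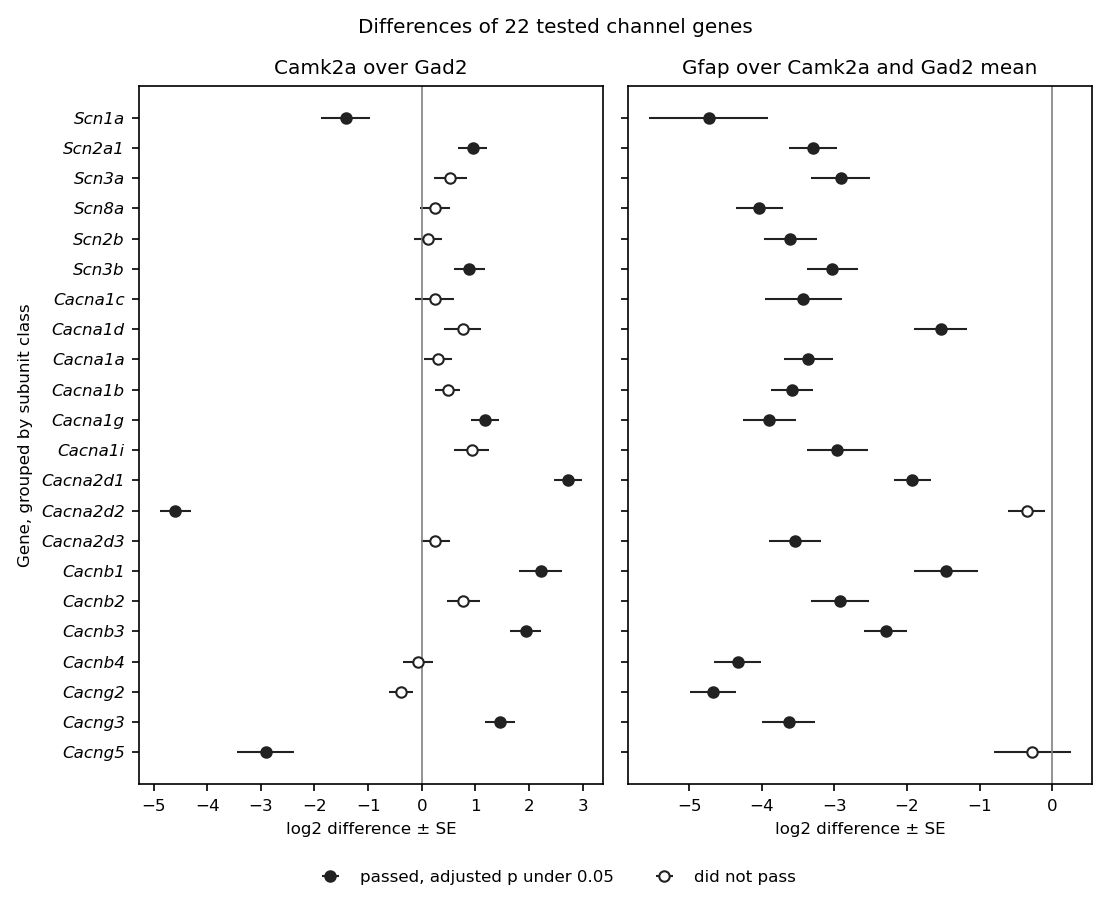
Log2 difference (x axis) with its SE for 22 tested genes, Camk2a over Gad2 at left. At right is Gfap over the log-scale mean of Camk2a and Gad2, and filled points passed an adjusted p of 0.05. At left, Cacna2d1 at 2.73 and Cacna2d2 at -4.59 lie farthest from 0; at right, points lie below 0, and those of Cacna2d2 (-0.35) and Cacng5 (-0.27) are open.

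**Figure D3:**
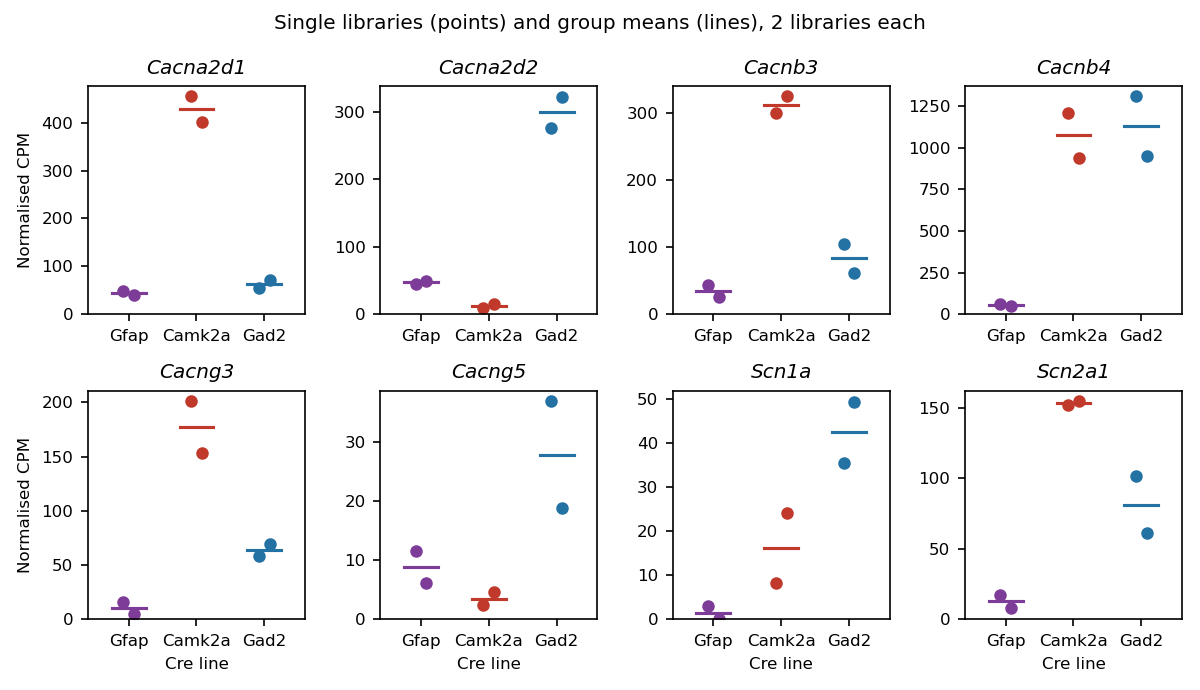
Normalised CPM of 8 genes in the 2 libraries (points) of the Gfap, Camk2a and Gad2 lines, with group means as lines. Cacna2d1, Cacnb3, Cacng3 and Scn2a1 are highest in Camk2a libraries, Cacna2d2, Cacng5 and Scn1a in Gad2 libraries, and Cacnb4 lies between 939.6 and 1307 in both neuronal groups.

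Genes known to act with these channels were listed as 18 partners, of which 13 could be tested. Camk2a libraries were higher in 3 and lower in 4, where 11.6% of all genes tested were higher and 9.6% lower. The fibroblast growth factor homologous factors, which bind the sodium channel tail, split: Fgf13 (log2 difference 0.82, adjusted p = 0.0224) and Fgf14 (1.30, adjusted p = 0.00500) were higher, and Fgf11 (-3.33, adjusted p = 8.39e-06) and Fgf12 (-1.35, adjusted p = 0.000565) were lower. Nedd4l, a ubiquitin ligase that acts on sodium channels, was higher (1.85, adjusted p = 6.41e-05). The leak channel Nalcn was lower (-0.96, adjusted p = 0.00722), as was Gem, a small GTPase that binds calcium channel β subunits (-2.52, adjusted p = 0.0474). Ank3, encoding the ankyrin that anchors sodium channels at the axon initial segment, did not pass (-0.23, SE 0.25, adjusted p = 0.574).

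Gfap libraries were next set against the mean of the Camk2a and Gad2 groups, taken on the log scale. Of the 23 tested genes, 21 were lower and 0 higher (20 and 0 without Scn2a1). No gene was higher at an unadjusted p under 0.05 or by DESeq2 either, a count of 0 in each case. Among all genes tested, 29.3% were lower and 31.3% higher. The median log2 difference was -3.32 over the 23 genes and 0.00 over all genes. Most members entered the test through their neuronal counts, since 8 of the 40 genes had 10 counts or more in both Gfap libraries, so the share that fell is a description of these libraries.

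By subunit class, all 4 tested sodium α genes and all 3 tested sodium β genes fell. Scn1a had 2.88 and 0 normalised CPM in Gfap libraries, against 8.21 and 24.0 in Camk2a libraries and 35.4 and 49.3 in Gad2 libraries (log2 difference -4.73, SE 0.82, adjusted p = 5.53e-05). Its size rested on single Gfap libraries, at -3.12 without Gfap replicate 2 and -7.86 without Gfap replicate 1, a fit to a count of 0. Scn2a1 had 17.3 and 7.98 normalised CPM in Gfap libraries, below each of the 4 neuronal libraries, which ranged over 61.1 to 154.7 (log2 difference -3.30, SE 0.33, adjusted p = 6.55e-08). Scn8a had 47.6 and 19.0 normalised CPM in Gfap libraries, against 431.8 to 545.6 in neuronal libraries (log2 difference -4.03, SE 0.33, adjusted p = 3.81e-09).

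All 6 tested calcium channel pores fell as well. Cacna1a had 10.1 and 9.82 normalised CPM in Gfap libraries, against 76.9 to 122.2 in neuronal libraries (log2 difference -3.36, SE 0.34, adjusted p = 8.11e-08). Cacna1b had 13.0 and 13.5 normalised CPM in Gfap libraries, against 115.3 to 201.4 in neuronal libraries (log2 difference -3.59, SE 0.29, adjusted p = 3.81e-09). Cacna1g had 10.1 and 3.68 normalised CPM in Gfap libraries, against 50.7 to 143.0 in neuronal libraries (log2 difference -3.90, SE 0.37, adjusted p = 3.36e-08). The smallest fall among pores was that of the L-type gene Cacna1d, at 8.65 and 17.2 normalised CPM in Gfap libraries, against 23.1 to 54.6 in neuronal libraries (log2 difference -1.54, SE 0.37, adjusted p = 0.00127).

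The auxiliary calcium channel genes were more uneven. Cacng2 had 7.21 and 10.4 normalised CPM in Gfap libraries, against 200.9 to 284.5 in neuronal libraries, and had the smallest p of the members (log2 difference -4.68, SE 0.32, adjusted p = 2.92e-10). Cacnb4 had 59.1 and 50.9 normalised CPM in Gfap libraries, against 939.6 to 1307 in neuronal libraries (log2 difference -4.33, SE 0.32, adjusted p = 1.02e-09). Cacnb1 fell by 1.46 on the log2 scale (SE 0.44, adjusted p = 0.00826), but its groups overlapped, and the call was lost without Gfap replicate 2 (adjusted p = 0.230) or Gad2 replicate 2 (adjusted p = 0.0585).

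The 2 genes that did not pass, Cacna2d2 and Cacng5, were also lower in Camk2a than in Gad2 libraries. Cacna2d2 had 44.7 and 49.7 normalised CPM in Gfap libraries, against 9.66 and 15.0 in Camk2a libraries and 275.2 and 322.4 in Gad2 libraries. The Gfap values lay between the neuron classes. Against a comparator that averaged both classes on the log scale, the log2 difference was -0.35 (SE 0.25, adjusted p = 0.239). Cacng5 had 11.5 and 6.13 normalised CPM in Gfap libraries, against 2.41 and 4.51 in Camk2a libraries and 36.9 and 18.7 in Gad2 libraries (log2 difference -0.27, SE 0.53, adjusted p = 0.684). Inhibitory neuron markers took 0.00175% and 0.00469% of counts in Gfap libraries. They took 0.00324% and 0.00387% in Camk2a libraries and 0.468% and 0.415% in Gad2 libraries. Gfap libraries also held excitatory, oligodendrocyte, oligodendrocyte precursor, and endothelial and mural markers, as given above. The part of any of these cells in the Cacna2d2 and Cacng5 values was not tested.

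Of the 13 tested partners, 10 fell in Gfap libraries and 2 were higher, where 29.3% of all genes tested were lower and 31.3% higher. Gem had 84.9 and 68.0 plain CPM (scaled by library total alone) in Gfap libraries, against 0.997 and 0.546 in Camk2a libraries and 3.17 and 6.31 in Gad2 libraries (log2 difference 5.35, SE 0.36, adjusted p = 5.05e-10). Ank2, which encodes a widely used ankyrin, was higher by 0.75 on the log2 scale (SE 0.22, adjusted p = 0.00560). Those with the smallest p among the falls, Unc80 (-3.43, adjusted p = 1.08e-09), Fam155a (-4.27, adjusted p = 1.58e-09) and Nalcn (-4.08, adjusted p = 1.89e-09), belong to a single sodium leak channel complex.

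Untreated Cx3cr1 libraries were set against the 3 cortical groups, averaged on the log scale. Of the 23 tested genes, 16 were lower and 0 higher (15 and 0 without Scn2a1). None was higher at an unadjusted p under 0.05 or by DESeq2, a count of 0 in each case. Among all genes tested, 28% were lower and 21.8% higher. No member had 10 counts or more in both untreated Cx3cr1 libraries (0 of 40), so members entered the test through their cortical counts, and the share that was lower is a description of these libraries. In this comparison the tissue (whole brain against cortex) and the Cre line cannot be told apart. The shallow microglial libraries set the precision: 8 of the 23 genes had a count of 0 in both, 9 had 1 to 3 counts over the pair, and the median log2 difference was -3.66 as fitted and -1.81 with the genes at 0 set to their bound, against -0.48 over all genes.

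Cacnb4, with 9 counts, had 50.86 and 14.7 normalised CPM in untreated Cx3cr1 libraries, against 50.92 to 1307 in cortical libraries (log2 difference -3.62, SE 0.44, adjusted p = 1.64e-06). Scn8a, with 4 counts, had 21.8 and 7.34 normalised CPM in untreated Cx3cr1 libraries, against 19.0 to 545.6 in cortical libraries (log2 difference -3.73, SE 0.58, adjusted p = 2.99e-05), and here the groups overlapped through Gfap replicate 2.

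Another 3 genes rested on fewer counts. For them and for Scn1a below, folds are against the cortical mean, here the geometric mean of the 3 cortical group means. Cacna2d1 had 7.27 and 0 normalised CPM in untreated Cx3cr1 libraries, against 41.1 to 455.9 in cortical libraries, from 1 count. That level was 29.2-fold below the cortical mean with a counting interval of 5.24 to 1153 (adjusted p = 2.36e-05). Cacna1b had 7.27 and 0 normalised CPM in untreated Cx3cr1 libraries, against 13.0 to 201.4 in cortical libraries. Its 1 count stood 19.3-fold below the cortical mean with an interval of 3.46 to 761 (adjusted p = 0.000269). Cacna2d2 had a count of 0 in both untreated Cx3cr1 libraries, against 9.66 to 322.4 normalised CPM in cortical libraries, and was at least 5.10-fold lower, taking 3 counts over the pair as the floor (adjusted p = 0.000225). These 95% exact Poisson intervals and the floor cover counting error in the microglial libraries only.

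Of the sodium channel pores, Scn2a1 had 14.5 and 14.7 normalised CPM in untreated Cx3cr1 libraries, against 7.98 to 154.7 in cortical libraries (log2 difference -1.81, SE 0.66, adjusted p = 0.0297). That call was lost without either Cx3cr1 library, at adjusted p of 0.0930 and 0.113. Scn1a had 0 and 14.7 normalised CPM in untreated Cx3cr1 libraries and was not resolved, its 2 counts standing at 1.36-fold below the cortical mean with an interval of 0.377 to 11.2 (adjusted p = 0.923). Cacna1a also did not pass, with 21.8 and 88.1 normalised CPM in untreated Cx3cr1 libraries, against 9.82 to 122.2 in cortical libraries (log2 difference 0.21, SE 0.46, adjusted p = 0.723). The spread lay between the 2 microglial libraries, and without replicate 2 the log2 difference was -1.17. The other genes that did not pass were Cacna1c, Cacna1d, Cacnb2, Cacng5 and Scn3a. After thinning, 10 genes were lower. Among the called genes with reported values, 9 of 15 kept their calls under every alternative that could test them. Cacna1g, Cacna1i, Cacnb1, Cacng3, Scn2a1 and Scn3b did not. Called genes whose untreated Cx3cr1 values overlapped the cortical values were Cacna1g, Cacng2, Scn2a1, Scn3b and Scn8a. Of the 13 tested partners, 11 were lower and 0 higher, where 28% of all genes tested were lower and 21.8% higher.

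LPS against PBS microglia was compared after the values of Cacna1d had been seen, so that this gene's response describes a noticed pattern. In RNA-seq of bead-isolated microglia, 5 channel genes could be tested and 2 were higher after LPS, Cacna1d among them, with 0 lower (0 also at an unadjusted p under 0.05 and by DESeq2, and 1 without PBS replicate 1 or without LPS replicate 1). Among all genes tested, 15.9% were higher and 10.4% lower. Cacna1d, an L-type pore that opens at fairly negative voltages, had 182.0, 169.2 and 221.1 normalised CPM after LPS, against 57.8, 59.8 and 63.7 after PBS. All LPS libraries were above all PBS libraries, with a log2 difference of 1.65 (SE 0.12, adjusted p = 2.90e-06). Cacna1a had 18.8, 11.2 and 20.1 normalised CPM after LPS, against 21.8, 26.4 and 20.7 after PBS, and did not pass (log2 difference -0.49, SE 0.25, adjusted p = 0.179). Cacnb1 and Cacnb2 did not pass either. Scn1a was at 0 in all 6 libraries, and Scn2a1 was too low to test. Pan-neuronal markers stayed at or below 0.000960% of counts after LPS and 0.00126% after PBS in these libraries. Microglial markers took 1.87% to 2.39% after LPS and 3.08% to 3.10% after PBS. Endothelial and mural markers took 0.0196% to 0.0426% after LPS and 0.0487% to 0.106% after PBS. Muscle and red cell markers took 0.00352% to 0.0110% after LPS and 0.0161% to 0.0192% after PBS, and oligodendrocyte precursor markers 0.00131% to 0.00184% after LPS and 0.00279% to 0.00485% after PBS. The part of these shares in the result was not tested.

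The Cacna1d span (chr14:30039941-30491156) overlaps 2 protein-coding genes. Whether strand was used in counting is not given, and the part of their reads in the Cacna1d counts was not tested. Dcp1a had a log2 difference of -0.03 (SE 0.17, adjusted p = 0.928), and Chdh was too low to test, at 2.61 to 5.16 plain CPM after LPS and 5.94 to 7.97 after PBS. In PAPERCLIP, 3 members could be tested and 0 were called in either direction (at an unadjusted p under 0.05, 0 higher and 1 lower; by DESeq2, 0 and 0), where 2.74% of all genes were higher and 0.791% lower. Cacna1d had 33.4, 17.4 and 36.5 normalised CPM after LPS, against 22.6, 16.2 and 40.3 after PBS, and the groups overlapped (log2 difference 0.13, SE 0.42, adjusted p = 0.918). The Cacna1d response was larger in RNA-seq by 1.44 on the log2 scale (SE 0.42), a difference that did not pass over 9862 genes (adjusted p = 0.257), so a difference between the assays was not shown.

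Cacnb4 had a log2 difference of -1.69 in PAPERCLIP (SE 0.58, adjusted p = 0.147), with 24.6, 25.3 and 21.9 normalised CPM after LPS, against 15.1, 36.3 and 170.3 after PBS. PBS replicate 3, which holds the 170.3, also had the highest share of the 40 genes among the 6 libraries (0.0838%, against 0.0293% to 0.0454% in the other 5) and of pan-neuronal markers (0.287%, against 0.0381% to 0.0565%). The part of that neuronal RNA in the Cacnb4 value was not tested.

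**Figure D4:**
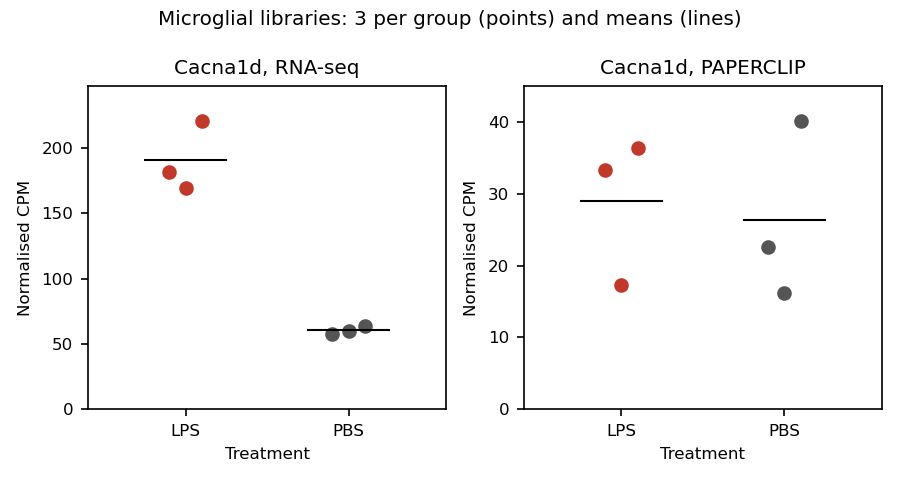
Normalised CPM of Cacna1d in 3 LPS and 3 PBS libraries (points, with means as lines), RNA-seq at left and PAPERCLIP at right. In RNA-seq the LPS points of Cacna1d (169.2 to 221.1) lie above the PBS points (57.8 to 63.7), and in PAPERCLIP the groups overlap.

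In the Ptbp2-KO cortex, Ptbp2 itself, a neuronal splicing regulator, had 36.7, 28.5 and 26.3 plain CPM in the 3 libraries. Without a control cortex, and without knowing which part of the gene was removed, these values do not check the deletion. All 40 channel genes had counts, and 34 had 10 counts or more in every library. They took 0.276%, 0.267% and 0.241% of counts (mean 0.261%, SD 0.0182, n = 3), at depths of 27141384, 27415288 and 19446610 counts. These libraries count reads over whole transcripts, transcript lengths were not at hand, and levels are therefore not compared between genes.

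Among sodium channel genes, Scn2a1 was at 375.8, 372.4 and 354.7 plain CPM. Scn3a, best known from the embryonic brain, was at 361.1, 318.3 and 296.5 plain CPM. Scn1a had 79.6, 69.1 and 62.8 plain CPM and Scn8a had 81.7, 83.2 and 67.0. Scn3b had 273.9, 250.01 and 194.6 plain CPM. Cacna1a had 29.6, 31.0 and 24.2 plain CPM, Cacna2d1 had 210.8, 218.9 and 243.4, and Cacna2d2 had 32.3, 28.3 and 13.3. Of the 25 genes that averaged 10 CPM or more, 22 were lowest in replicate 3. The ratio of the highest to the lowest library was at most 2.44, for Cacna2d2, with a median of 1.23. Replicate 3 also diverged over all genes, with a chi-square per degree of freedom of 75.5 and 76.9 in its pairs, against 6.67 between replicates 1 and 2. It had counts for 37123 identifiers, against 29970 and 30850. Inhibitory markers took 0.0224% of its counts, against 0.0372% and 0.0358%, and excitatory markers 0.0998%, against 0.0790% and 0.0781%. The part of these differences in the channel values was not tested.

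Several members that the PAPERCLIP tables list at or near 0 had ample reads in this cortex. Cacna1e, the R-type pore, had 297.8, 308.1 and 278.4 plain CPM, against 3 counts over all 15 PAPERCLIP libraries. Cacng4, an AMPA receptor partner, had 93.6, 87.7 and 79.2 plain CPM, against 4 PAPERCLIP counts. Scn9a, a pore best known from pain-sensing neurons, had 62.2, 56.1 and 55.4 plain CPM, against 1 PAPERCLIP count. Cacng7 had 40.3, 38.9 and 33.5 plain CPM and Cacng8 8.14, 7.48 and 5.04, and both are listed at 0 in PAPERCLIP. Assay and genotype differ between these data, and ages of the PAPERCLIP mice are not given, so their parts cannot be told apart. A further 9 genes stayed under 1 CPM in every knockout library, among them the muscle genes Scn4a and Cacna1s.

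**Figure D5:**
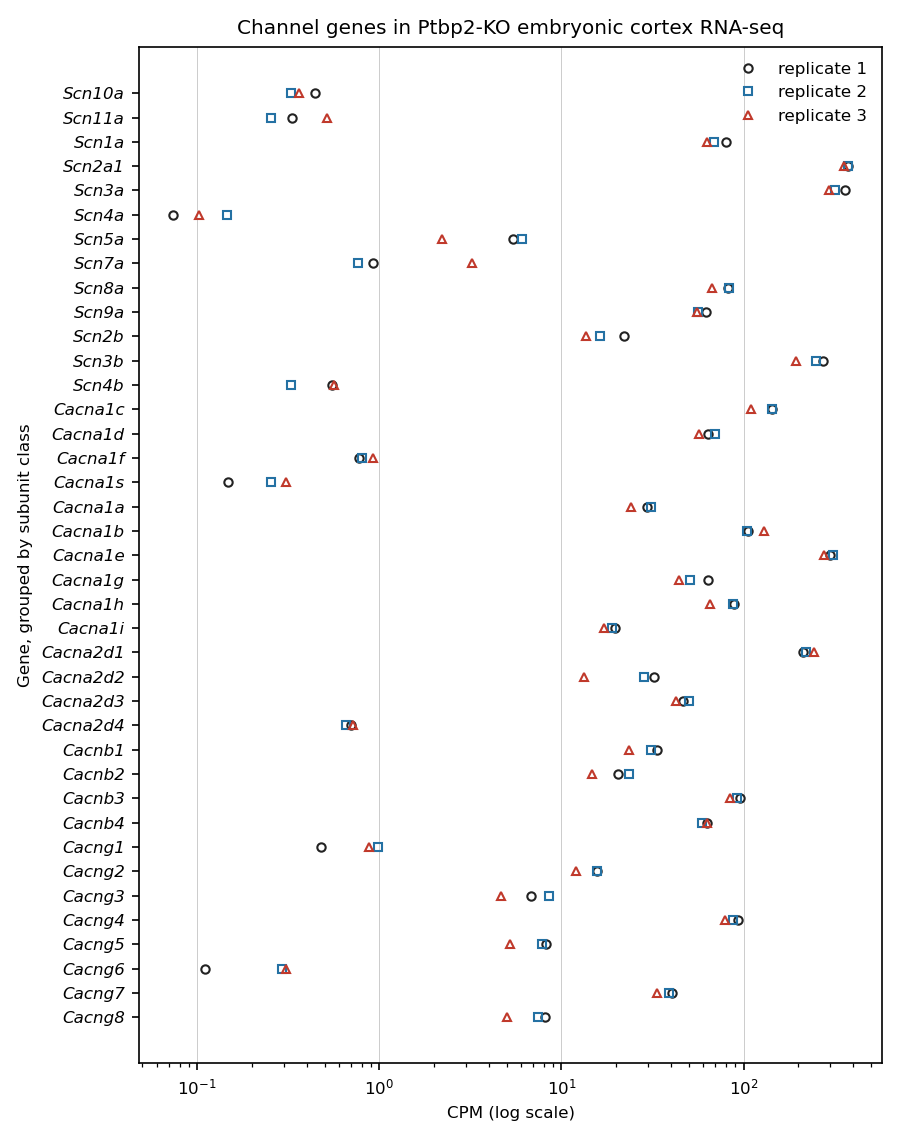
Plain CPM (log scale) of 39 channel genes in the 3 Ptbp2-KO cortex libraries, one marker shape per replicate. Replicates lie close together for most genes above 10 CPM; Cacna2d2 spreads from 13.3 to 32.3.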

How the data were processed

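The deposited files hold whole-number counts per gene and library, made by the authors without normalisation. The build was mm10, and the tools named were cutadapt, Novoalign and STAR, per the submitters' processing notes. Versions, strand use and collapsing of random barcodes are not stated in the sources at hand. Knockout RNA was ribosome-depleted and microglial RNA poly(A)-selected, per the labels' protocols.

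Groups came from sample titles, or from the source (liver), agent (microglial RNA-seq) and genotype (knockout) labels. Counts were fitted with edgeR 4.0.16 quasi-likelihood models (R 4.3.3; filterByExpr, TMM, Benjamini-Hochberg over all genes, adjusted p under 0.05): 8 untreated libraries in a single fit for 3 contrasts, and 6 libraries for each LPS contrast. DESeq2 1.42.0 was an alternative. The fit was tested on simulated data for the Camk2a against Gad2 contrast only. That run does not cover the other contrasts or their low counts. SE is that of the log2 difference. No replicate pair differed by sampling noise alone. Outside the knockout, labels do not name separate animals, so p-values cover only library-to-library spread, possibly technical. Positions and promoters come from RefSeq tables of GRCm38.p6, the assembly of mm10.

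Members and gene lists were chosen with earlier results of these data known. Named in full were Scn1a, Scn2a1, Cacna1a and up to 6 genes per direction with the smallest adjusted p; other genes named were picked after their values were seen. In PAPERCLIP, same-numbered LPS and PBS libraries deviated together (correlations 0.125, 0.259 and 0.193), so their numbers may mark pairs. In RNA-seq, same-numbered libraries correlated at 0.110, 0.0963 and 0.188, and differently numbered ones at -0.164 to 0.105. Pairing is therefore possible there too. Labels state no shared litter or day. The LPS fits printed above were unpaired, and a replicate block was an alternative. The values of 1 gene counted among the members are not reported here.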

Additional observations from a re-analysis of the deposited data

How the results depend on the processing

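Between Camk2a and Gad2, 5 of the 10 called genes kept their calls under every alternative that could test them. Of these 5, Cacnb1 and Cacng5 could not be tested after thinning. With the libraries thinned, 2 genes were higher and 1 lower in Camk2a, 13 lower in Gfap and 10 lower in untreated Cx3cr1 libraries, on 14 members tested. Leaving out each library gave 4 to 9 genes higher in Camk2a and, in LPS against PBS RNA-seq, 0 to 1 lower; without a filter, 2 genes were lower after LPS in either assay. With a replicate block, 8 genes were higher and 3 lower in Camk2a, 21 lower in Gfap and 17 lower in untreated Cx3cr1 libraries; same-numbered untreated libraries correlated at 0.00684 to 0.0830, so these numbers were not taken as pairs, and the block changed no LPS call. Thinning turned Cacna2d2 in Gfap to 0.39. Leaving out a library turned log2 differences that had not passed. Their lowest and highest values were, in Camk2a against Gad2, -0.27 to 0.17 for Cacnb4, -0.26 to 0.63 for Cacna1c, -0.051 to 0.63 for Cacna2d3 and -0.061 to 0.29 for Scn2b. In Gfap, Cacng5 ranged over -0.66 to 0.26, and in untreated Cx3cr1, Scn1a over -6.37 (a fit to a count of 0) to 0.69 and Cacna1a over -1.17 to 0.74. In PAPERCLIP after LPS, Cacna1d ranged over -0.10 to 0.61. The cause was not tested, beyond the fewer counts that thinning leaves. Scaling by total counts moved the median of all genes in Gfap to -0.21, with 21 members still lower. Cacna1d after LPS in RNA-seq ranged over 1.54 to 1.73 in 12 alternatives. In the untreated Cx3cr1 libraries, 8 of the 23 tested genes had a count of 0 in both.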

Other observations

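Among the 17 genes too low to test, 2 had their highest value in a Gfap library. Cacna2d4, an α2δ gene known from the retina, had 4.33 and 1.84 normalised CPM in Gfap libraries, against 0 and 0.501 in Camk2a libraries and 0 and 0.986 in Gad2 libraries. Scn7a, an atypical pore that senses sodium, had 10.1 and 4.91 normalised CPM in Gfap libraries, against 5.80 and 7.01 in Camk2a libraries and 4.61 and 3.94 in Gad2 libraries. Neither was tested.

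Within single libraries, the log2 ratio of Cacnb3 to Cacnb4 was -0.45 and -0.98 in Gfap libraries, -2.01 and -1.53 in Camk2a libraries and -3.64 and -3.94 in Gad2 libraries. The 3 groups did not overlap.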
